A study of Rattus norvegicus with 20 samples.

Results

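The 8 genes described here encode core parts of the angiotensin and endothelin systems: Agt, Ace, Agtr1a, Agtr2, Edn1, Ece1, Ednra and Ednrb. They were chosen by name and found in the deposited gene table by KEGG short name, by the gene of the listed protein, or by protein name, and all 8 were among its 15503 genes. RNA was sequenced from primary cultures labelled as neonatal rat cardiomyocytes after 72 h in 4 conditions, with 5 libraries in each: PBS alone as the vehicle, histidine at 100 nM, doxorubicin at 1 µM, and histidine with doxorubicin at those doses. Doxorubicin is an anthracycline cancer drug that poisons topoisomerase II on DNA and injures heart muscle, and histidine is an amino acid from which histamine and carnosine are made. The question behind the groups was the effect of histidine on heart cells, alone or together with doxorubicin. The labels give no animal age beyond neonatal and do not tell whether the 5 libraries of a group are separate cultures. The p-values therefore cover only the variation among these libraries, part of which may be technical.

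Angiotensin and endothelin are peptide hormones of the circulation that heart cells also make and sense locally. Angiotensinogen, the product of Agt, is cut to angiotensin I, which angiotensin-converting enzyme (Ace) trims to angiotensin II. The type 1 receptor (Agtr1a) couples mainly to Gq proteins and drives contraction, growth of cardiomyocytes and matrix production by fibroblasts, whereas the type 2 receptor (Agtr2), common in fetal tissue, often opposes it. Preproendothelin (Edn1) is processed to big endothelin, which endothelin-converting enzyme 1 (Ece1) cleaves to endothelin-1, and the receptors Ednra and Ednrb pass its signal on, Ednrb also clearing the peptide.

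Drug treatment came with lower Agtr2 and Edn1 and with higher Ace, Ednra and Ednrb, both without histidine and with it. In the whole-table fit of doxorubicin against PBS, 3 of the 8 genes passed the test upward and 2 downward, at an adjusted p under 0.05 by edgeR's quasi-likelihood test with Benjamini-Hochberg adjustment. Of all 15449 genes tested, 43.2% passed, 21.7% upward and 21.5% downward, which is the background against which 5 of 8 is to be read. The same 5 genes passed in the same directions between the libraries with both compounds and those with histidine, where 40.2% of all genes passed, 19.9% upward and 20.3% downward. These 2 drug comparisons share no library, and 31.6% of all genes passed in both in the same direction. All 8 genes were kept by the filter on low counts.

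The RefSeq sequences just upstream of the 5 genes that passed in both drug comparisons are shown because these genes moved with the drug while going in different directions. Each is the stretch of 250 bases before the annotated start in the rat build GRCr8, on the gene's own strand, 5′ to 3′. Capitals mark matches, on either strand, to 5 motifs: the TATA box, the CCAAT box, the GC box, a GATA motif and an AP-1 motif. The TATA box was searched as TATAAA and the CCAAT box as these 5 letters. The GC box was searched as GGGCGG and the GATA motif as AGATAA. The AP-1 motif was searched as TGANTCA. No match of one kind overlaps a match of another in the sequences shown. The first 2 sequences belong to the genes that were lower with the drug and the next 3 to those that were higher.
Agtr2, chrX:116914070-116914319, plus strand: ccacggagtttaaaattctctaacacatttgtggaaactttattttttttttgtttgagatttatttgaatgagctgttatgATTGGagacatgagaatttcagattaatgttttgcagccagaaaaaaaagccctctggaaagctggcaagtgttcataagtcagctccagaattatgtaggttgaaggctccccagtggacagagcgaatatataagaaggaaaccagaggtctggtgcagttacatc
Edn1, chr17:22666688-22666937, minus strand: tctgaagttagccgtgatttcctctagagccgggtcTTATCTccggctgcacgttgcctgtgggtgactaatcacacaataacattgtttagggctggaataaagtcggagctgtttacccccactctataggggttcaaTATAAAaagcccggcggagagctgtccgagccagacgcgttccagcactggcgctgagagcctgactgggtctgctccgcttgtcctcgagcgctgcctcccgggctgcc
Ace, chr10:91409879-91410128, plus strand: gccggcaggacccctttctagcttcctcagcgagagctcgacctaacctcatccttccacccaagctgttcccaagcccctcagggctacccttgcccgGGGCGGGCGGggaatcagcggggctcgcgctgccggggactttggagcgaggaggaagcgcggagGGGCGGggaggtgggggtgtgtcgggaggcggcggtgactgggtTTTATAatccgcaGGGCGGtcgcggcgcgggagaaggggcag
Ednra, chr19:47137674-47137923, plus strand: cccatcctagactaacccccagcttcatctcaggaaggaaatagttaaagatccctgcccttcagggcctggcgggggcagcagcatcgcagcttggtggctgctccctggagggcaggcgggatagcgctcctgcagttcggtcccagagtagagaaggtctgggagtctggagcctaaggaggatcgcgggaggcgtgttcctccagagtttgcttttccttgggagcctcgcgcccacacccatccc
Ednrb, chr15:87086766-87087015, minus strand: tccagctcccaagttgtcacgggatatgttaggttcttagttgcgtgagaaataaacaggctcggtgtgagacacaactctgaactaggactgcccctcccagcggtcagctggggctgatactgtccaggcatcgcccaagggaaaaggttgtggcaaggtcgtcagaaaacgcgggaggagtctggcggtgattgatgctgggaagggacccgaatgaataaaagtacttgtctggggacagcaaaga

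The Agtr2 stretch held a CCAAT box on the opposite strand, 168 to 164 bases before the start. That motif was found in 34.0% of all 33469 stretches of this length in the RefSeq table. Edn1 had a TATA box 110 to 105 bases before the annotated start, present in 12.9% of all stretches. It also had a GATA motif on the opposite strand, 214 to 209 bases before the start, present in 10.3%. Ace had 4 GC boxes, of which the first 2 overlap, and a TATA box on the opposite strand 42 to 37 bases before the start; GC boxes occurred in 30.5% of all stretches. The stretches of both endothelin receptor genes held none of the 5 letter patterns. The exact AP-1 letters TGANTCA occurred in none of the 7 members with a sequence and in 6.34% of all stretches. Sequences that differ from a motif by 1 letter were not searched, so no match does not mean that no site is present. The GC content was 38% for Agtr2, 56.4% for Edn1, 69.2% for Ace, 61.2% for Ednra and 53.2% for Ednrb, against a median of 51.2% over all stretches. A match is only a run of letters, and Agt had no entry in the table.

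Depth, libraries that stand apart and the cell types present are given first. Total counts per library ran from 53246205 to 83624651 and the ranges of the 4 groups overlapped. Doxorubicin replicate 4 stood apart on the second principal component, which held 8.02% of the variance, at 77.2 against -16.7 to 8.10 for the others. Agtr1a was nearly absent in doxorubicin replicates 3 and 4 alone. Results that rest on these libraries are given with and without them.

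The cardiomyocyte label was checked against 17 measured markers, whose summed level was 855 to 989 CPM (counts scaled to library size with the trimmed mean of M values) with PBS, or 0.0920% of counts. Fibroblast markers summed to 75090.1 to 82569.7 CPM, 8.03% of counts. These sums are over different genes and do not measure the share of each cell type. With doxorubicin the cardiomyocyte sum was 152 to 280.0 CPM, with 16 of 17 markers lower. Of all genes 21.7% were higher and 21.5% lower with doxorubicin against PBS. The fibroblast sum was 32532 to 56869 CPM with the drug, with 4 of 12 markers lower and 2 higher. The median log2 change of these 12 was -0.13. Col1a1, Col1a2 and Col3a1 made up most of the fibroblast sum. Mean Col1a1 went from 42013 to 24311 CPM, while mean Ddr2 went from 343 to 357 CPM. The smooth muscle and pericyte sum went from 7746 to 9092 CPM to 2918 to 6143 CPM, with 8 of 11 lower and 1 higher. Macrophage and leukocyte markers went from 3098 to 3302 CPM to 193 to 327 CPM, with 13 of 14 lower and 0 higher, and Cx3cr1 had 0 reads in some libraries with the drug. The epicardial and mesothelial sum was higher, at 112 to 125 CPM with PBS and 161 to 177 CPM with doxorubicin, with 3 of 7 higher and 1 lower. Mean Upk1b, the largest part of that rise, went from 1.56 to 35.9 CPM. Mean Krt8 went from 4.60 to 2.13 CPM and mean Msln from 24.8 to 27.1 CPM. Endothelial markers summed to 60.4 to 75.3 CPM with PBS and 65.0 to 75.7 CPM with doxorubicin, although 6 of 10 were lower and 3 higher. Their median log2 change was -1.98. Mean Flt1, the largest part of the sum, went from 31.9 to 44.2 CPM, and mean Cdh5 from 1.83 to 0.119 CPM. In bulk RNA, fewer cells of a type and less RNA per cell cannot be told apart, and the part of these marker changes in the results on the 8 genes was not tested.

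**Figure D1:**
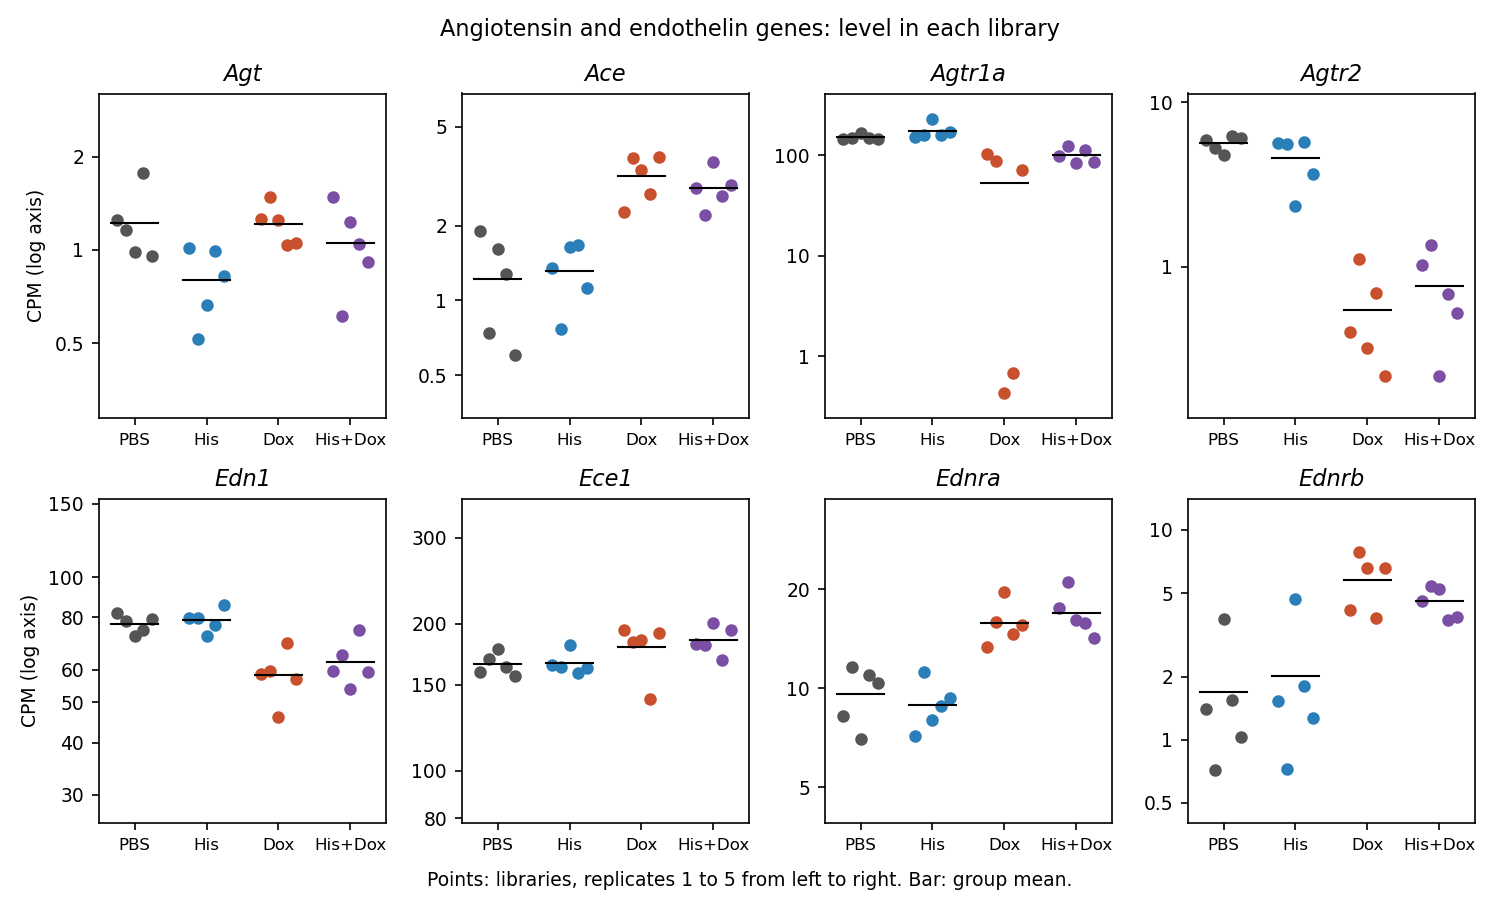
Level of each gene in each of the 20 libraries, in CPM on a log axis, with 5 libraries per group in replicate order and the group mean as a bar. Agtr2 with the drug lies below every library without it, Ace and Ednra lie above, and Agtr1a has 2 libraries, doxorubicin replicates 3 and 4, under 1 CPM.

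Angiotensinogen transcripts were scarce and did not pass the test in any comparison. Agt (ENSRNOG00000018445, chr19:52529185-52540977 in mRatBN7.2, minus strand) stood at 1.25, 1.16, 0.982, 1.77 and 0.954 CPM in PBS replicates 1 to 5, at 1.02, 0.516, 0.666, 0.990 and 0.824 CPM with histidine, at 1.26, 1.48, 1.25, 1.03 and 1.05 CPM with doxorubicin, and at 1.48, 0.612, 1.23, 1.04 and 0.911 CPM with both. These rest on 27 to 134 reads per library, and the groups overlapped in every comparison. The log2 change was -0.01 ± 0.25 (SE) with doxorubicin against PBS (adjusted p = 0.978) and 0.39 ± 0.25 with both against histidine (adjusted p = 0.238). Histidine libraries had the lowest mean, 0.803 ± 0.213 CPM (SD, n = 5), against 1.22 ± 0.332 CPM with PBS. That difference had an unadjusted p of 0.0273 in edgeR's quasi-likelihood test and an adjusted p of 1.

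Ace, the enzyme that makes angiotensin II and also degrades bradykinin, was low but higher in all libraries with the drug. Ace (ENSRNOG00000062101, chr10:90910316-90931131, plus strand), whose upstream stretch held the TATA and GC boxes shown above, had 1.90, 0.736, 1.61, 1.27 and 0.604 CPM with PBS and 2.26, 3.76, 3.33, 2.68 and 3.78 CPM with doxorubicin. With histidine it had 1.35, 0.764, 1.63, 1.68 and 1.12 CPM and with both compounds 2.84, 2.22, 3.62, 2.62 and 2.90 CPM. The lowest library with the drug, at 2.22 CPM, lay above the highest library without it, at 1.90 CPM. Ace rose 2.58-fold with doxorubicin against PBS (log2 1.37 ± 0.28, adjusted p = 0.000561). With both against histidine it rose 2.16-fold (log2 1.11 ± 0.28, adjusted p = 0.00336). Reads per library were 38 to 121 without the drug and 134 to 262 with it, so the level without the drug is the less precise.

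The type 1 angiotensin receptor was the most abundant of the 8 by FPKM without the drug, and its values with doxorubicin split into separate levels. Agtr1a (ENSRNOG00000018346, chr17:34174429-34226946, minus strand) had 145, 147, 167, 147 and 144 CPM with PBS and 150.2, 159, 228, 157 and 169 CPM with histidine. With both compounds it had 98.6, 123, 84.2, 112 and 85.4 CPM. With doxorubicin alone it had 103, 88.1, 0.434, 0.676 and 71.4 CPM, so replicates 3 and 4, with 31 and 51 reads, lay 203 and 130-fold below the median of the other 3 libraries, 88.1 CPM. All libraries with the drug lay below all libraries without it.

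With all 20 libraries Agtr1a did not pass the test: the log2 change was -1.51 ± 0.81 with doxorubicin against PBS (adjusted p = 0.141) and -0.78 ± 0.80 with both against histidine (adjusted p = 0.478). Without doxorubicin replicates 3 and 4, a choice made after their values were seen, it passed in both, at -0.78 ± 0.15 (adjusted p = 0.0003635) and -0.78 ± 0.13 (adjusted p = 5.391e-05). The remaining 3 doxorubicin libraries averaged 87.5 ± 15.8 CPM (SD, n = 3) against 149.7 ± 9.62 CPM with PBS. The fit of the libraries with histidine and with both alone also gave a call, at -0.78 (adjusted p = 0.0005631). Limma on log2(FPKM + 1), with replicates 3 and 4 kept, gave a call for doxorubicin against PBS, at -2.60 (adjusted p = 0.009357). The same limma fit gave no call for both against histidine, at -0.71 (adjusted p = 0.4894). With doxorubicin against PBS the size of the difference thus depends on whether those 2 libraries count, while with both against histidine only its SE and the call did.

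Such near-empty values were rare but not particular to Agtr1a. For each library, the genes looked at had a median of at least 5 CPM in the other libraries of its group. These came to between 10735 and 11133 genes per library. Each of the 20 libraries had between 6 and 17 of them at less than 1 part in 20 of that median. Examples were the connexin gene Gja1 and the caveolin gene Cav1, named after their values were seen. Against the median of the doxorubicin libraries without replicates 3 and 4, 3 genes were this low in both of these replicates, 1 of them Agtr1a and 1 Spata6l. No other row of the table overlapped the span of Agtr1a. Rats carry a near-identical second gene, Agtr1b, which was not analysed here, and how reads shared by both genes were counted is not given in the sources used here, so the Agtr1a counts are uncertain for that reason too. What set these values was not tested.

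The type 2 angiotensin receptor showed the widest change of the 8 in the edgeR fit of both drug comparisons. With limma on log2(FPKM + 1), Agtr1a changed more with doxorubicin against PBS, its near-empty libraries included (-2.60 against -1.23 for Agtr2). Agtr2 (ENSRNOG00000050006, chrX:112120228-112124057, plus strand) had 5.92, 5.29, 4.78, 6.28 and 6.04 CPM with PBS and 5.67, 5.58, 2.35, 5.70 and 3.67 CPM with histidine. It had 0.399, 1.11, 0.322, 0.689 and 0.216 CPM with doxorubicin and 1.03, 1.36, 0.218, 0.687 and 0.525 CPM with both. The highest library with the drug, at 1.36 CPM, lay below the lowest without it, histidine replicate 3 at 2.35 CPM. Agtr2 was 10.4-fold lower with doxorubicin than with PBS (log2 -3.38 ± 0.43, adjusted p = 2.53e-06). It was 6.01-fold lower with both compounds than with histidine (log2 -2.59 ± 0.42, adjusted p = 4.48e-05). The drug libraries held 14 to 82 reads of Agtr2 each, and the exact 95% Poisson interval of the lowest doxorubicin library, replicate 5, was 0.121 to 0.357 CPM, for counting error only.

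Transcripts of the endothelin precursor were moderately lower with the drug. Edn1 (ENSRNOG00000014361, chr17:22454420-22460885, minus strand) had 82.2, 78.2, 72.3, 74.5 and 79.4 CPM with PBS and 58.6, 59.5, 46.2, 69.5 and 56.9 CPM with doxorubicin. It had 79.9, 79.6, 72.3, 76.6 and 85.8 CPM with histidine and 59.4, 65.2, 53.9, 74.5 and 59.3 CPM with both. The doxorubicin libraries lay below all PBS libraries, whereas replicate 4 with both compounds, at 74.5 CPM, reached into the range of the histidine libraries. Edn1 was 1.33-fold lower with doxorubicin than with PBS (log2 -0.41 ± 0.09, adjusted p = 0.00143). With both compounds it was 1.26-fold lower than with histidine (log2 -0.34 ± 0.09, adjusted p = 0.00733). These values rest on 3300 to 5622 reads per library.

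The enzyme that cuts big endothelin was abundant and did not pass the test with all libraries included. Ece1 (ENSRNOG00000014241, chr5:150077644-150179371, plus strand) had 159, 169, 178, 163 and 157 CPM with PBS and 165, 163, 181, 159 and 162 CPM with histidine. It had 194, 183, 185, 141 and 192 CPM with doxorubicin, the lowest value being replicate 4, and 182, 181, 201, 169 and 194 CPM with both. The groups overlapped, and the log2 change was 0.12 ± 0.08 with doxorubicin against PBS (adjusted p = 0.235) and 0.16 ± 0.08 with both against histidine (adjusted p = 0.113). Without doxorubicin replicate 4, the library that stood apart, Ece1 passed the test in both comparisons, at 0.19 ± 0.05 (adjusted p = 0.00659) and 0.16 ± 0.05 (adjusted p = 0.0151). In the fit of histidine and both alone it also passed, at 0.16 (adjusted p = 0.0482).

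The endothelin A receptor, which couples to Gq and mediates contraction and growth, was higher with the drug. Ednra (ENSRNOG00000012721, chr19:30233571-30297049, plus strand) had 8.27, 11.6, 7.01, 11.0 and 10.4 CPM with PBS and 13.3, 15.9, 19.6, 14.7 and 15.6 CPM with doxorubicin. It had 7.15, 11.2, 7.99, 8.86 and 9.35 CPM with histidine and 17.5, 21.0, 16.1, 15.8 and 14.2 CPM with both. The lowest drug library, at 13.3 CPM, lay above the highest library without it, at 11.6 CPM. Ednra rose 1.64-fold with doxorubicin against PBS (log2 0.71 ± 0.15, adjusted p = 0.000666) and 1.90-fold with both against histidine (log2 0.93 ± 0.15, adjusted p = 4.86e-05).

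The ratio of reads to FPKM gives the gene length that the deposited FPKM values imply, and for Ednra this length was not the same in all libraries. It was about 5150 bp in most of them, but 3796 and 3935 bp in PBS replicates 1 and 3, 3679 bp in histidine replicate 1 and 4287 bp in doxorubicin replicate 3. These were the 2 lowest PBS libraries and the lowest histidine library in Ednra CPM, and the doxorubicin library was the highest of its group. Ednra by FPKM was 2.02 ± 0.180 with PBS, 1.82 ± 0.219 with histidine, 3.27 ± 0.921 with doxorubicin and 3.38 ± 0.527 with both (SD, n = 5 each). For the other genes with at least 100 reads in a library the implied length varied by up to 1.16-fold, in Ace. The part of this in the Ednra difference was not tested. With limma on log2(FPKM + 1) the Ednra change was 0.48 ± 0.11 for doxorubicin against PBS (adjusted p = 0.001724) and 0.63 ± 0.11 for both against histidine (adjusted p = 0.000128), on a scale that understates the change of low genes.

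The endothelin B receptor was also higher with the drug, from a level that varied widely without it. Ednrb (ENSRNOG00000010997, chr15:80643043-80672115, minus strand) had 1.41, 0.721, 3.76, 1.55 and 1.03 CPM with PBS and 4.15, 7.83, 6.61, 3.79 and 6.58 CPM with doxorubicin. It had 1.53, 0.726, 4.66, 1.81 and 1.27 CPM with histidine and 4.60, 5.42, 5.22, 3.71 and 3.84 CPM with both. Replicate 3 was the highest library with PBS and with histidine, and the histidine one, at 4.66 CPM, lay inside the range of the drug libraries. Ednrb rose 3.41-fold with doxorubicin against PBS (log2 1.77 ± 0.43, adjusted p = 0.00254). With both against histidine it rose 2.27-fold (log2 1.18 ± 0.43, adjusted p = 0.0333). The latter call was lost when any 1 of 7 libraries was left out, namely histidine replicates 1, 2, 4 and 5 or replicates 1, 2 and 3 with both, at adjusted p-values of 0.0524 to 0.0818. Without histidine replicate 3 the log2 change was 1.76 (adjusted p = 0.00128).

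**Figure D2:**
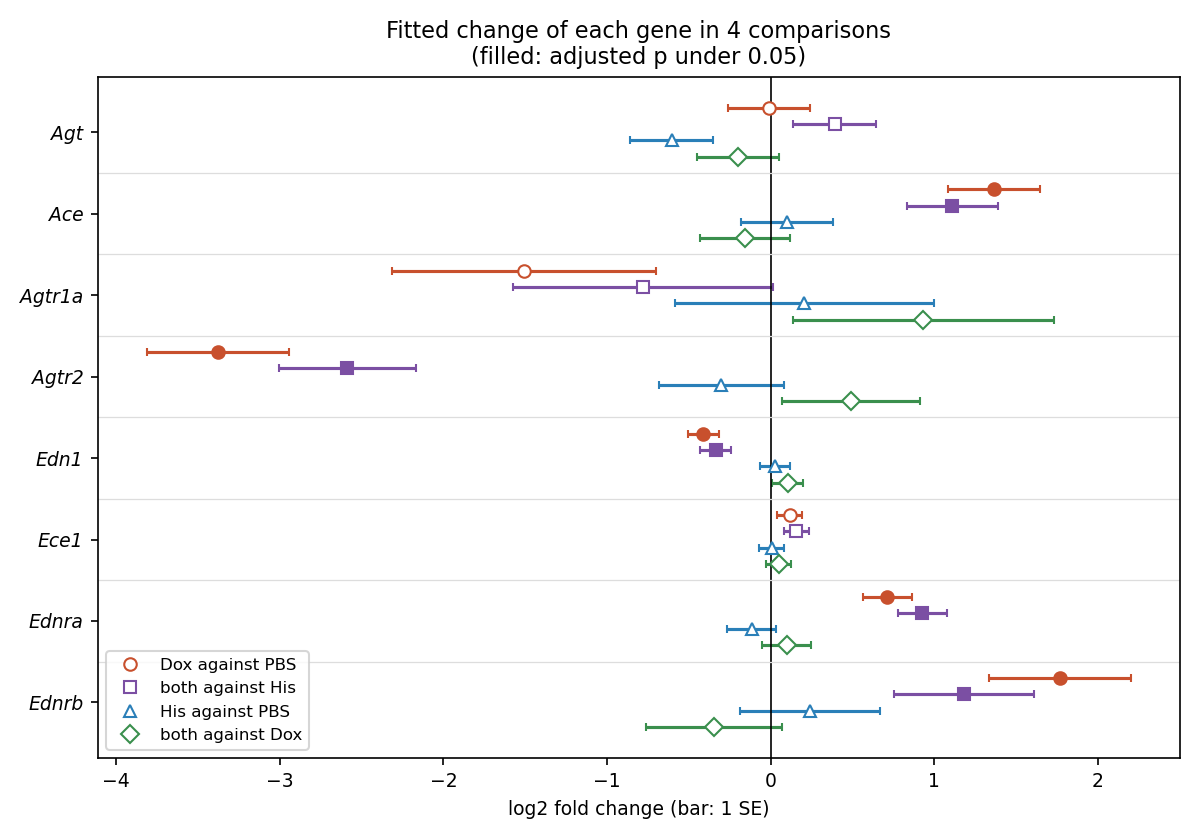
Fitted log2 fold change of each gene with 1 SE to either side, in the 2 drug comparisons and the 2 histidine comparisons, with filled symbols for an adjusted p under 0.05 in edgeR's quasi-likelihood test. Filled symbols appear only in the drug comparisons, for Ace, Agtr2, Edn1, Ednra and Ednrb, and the Agtr1a bars are the longest.

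By group separation, 6 of the 8 genes had doxorubicin libraries that did not overlap the PBS libraries, where 31.1% of all genes did so. Between both compounds and histidine 4 of 8 did not overlap, where 35.2% of all genes did so. The median log2 change of the 8 was 0.05 with doxorubicin against PBS, and that of all genes was also 0.05. With both against histidine the median was 0.28, against 0.01 for all genes.

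Histidine changed none of the 8 genes past the test. Against PBS the log2 changes ran from -0.60 for Agt to 0.24 for Ednrb, with adjusted p-values of 1 throughout, and the groups overlapped for each gene. In edgeR's quasi-likelihood test 0% of all genes passed here, 312 genes (2.02%) had an unadjusted p under 0.05, and DESeq2 called 2 genes higher and 3 lower. In cultures with the drug, both compounds against doxorubicin gave changes from -0.34 for Ednrb to 0.93 for Agtr1a, with adjusted p-values of 0.614 to 0.824 and overlapping groups. There 0% of all genes passed in edgeR, 1940 (12.6%) had an unadjusted p under 0.05, and DESeq2 called 6 higher and 14 lower.

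The widest gap there, in Agtr1a, was 0.20 ± 0.15 without doxorubicin replicates 3 and 4 (adjusted p = 0.9225). The 5 libraries with both compounds, at 84.2 to 123 CPM, then lay beside 3 doxorubicin libraries at 71.4 to 103 CPM. The test of whether the drug effect differed with histidine gave adjusted p-values of 0.652 for Agtr2 to 0.908 for Ece1 over the 8 genes. No gene of the table passed that test in edgeR (0%), 1060 (6.86%) had an unadjusted p under 0.05, and DESeq2 called 8 higher and 7 lower. Agtr2 had the largest such difference, 0.79 ± 0.57 on the log2 scale.

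Compared per length, as FPKM, the group means of the 8 genes fell into a high and a low tier, and the order within them differed between groups. With PBS, Agtr1a led at 51.3 ± 3.37 FPKM (SD, n = 5), above Edn1 at 35.9 ± 1.94 and Ece1 at 33.6 ± 1.74, the last 2 of which overlapped. The low tier with PBS ran from Ednra at 2.02 ± 0.180 over Agtr2 at 1.75 ± 0.186, Ednrb at 0.772 ± 0.549 and Agt at 0.573 ± 0.154 to Ace at 0.224 ± 0.104 FPKM. In the low tier Ednra overlapped Agtr2, Agtr2 overlapped Ednrb, and Ednrb overlapped Agt, while Agt and Ace did not overlap. With histidine the order was the same, from Agtr1a at 60.3 ± 11.4 FPKM to Ace at 0.246 ± 0.0749 FPKM, which there overlapped Agt.

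With doxorubicin Ece1 led at 38.1 ± 6.33 FPKM, followed by Edn1 at 27.7 ± 2.68 FPKM and Agtr1a at 19.0 ± 17.6 FPKM, or 31.5 ± 5.64 FPKM without its 2 near-empty libraries. Agtr2 was last in both drug groups, at 0.172 ± 0.118 FPKM with doxorubicin and 0.250 ± 0.146 FPKM with both. Ednrb stood at rank 5 in both drug groups and at rank 6 in the others, at 2.76 ± 0.924 FPKM with doxorubicin and 2.20 ± 0.392 FPKM with both. With both compounds Ece1 at 40.0 ± 2.77 FPKM, Agtr1a at 36.4 ± 6.20 FPKM and Edn1 at 30.5 ± 3.77 FPKM overlapped their neighbours.

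**Figure D3:**
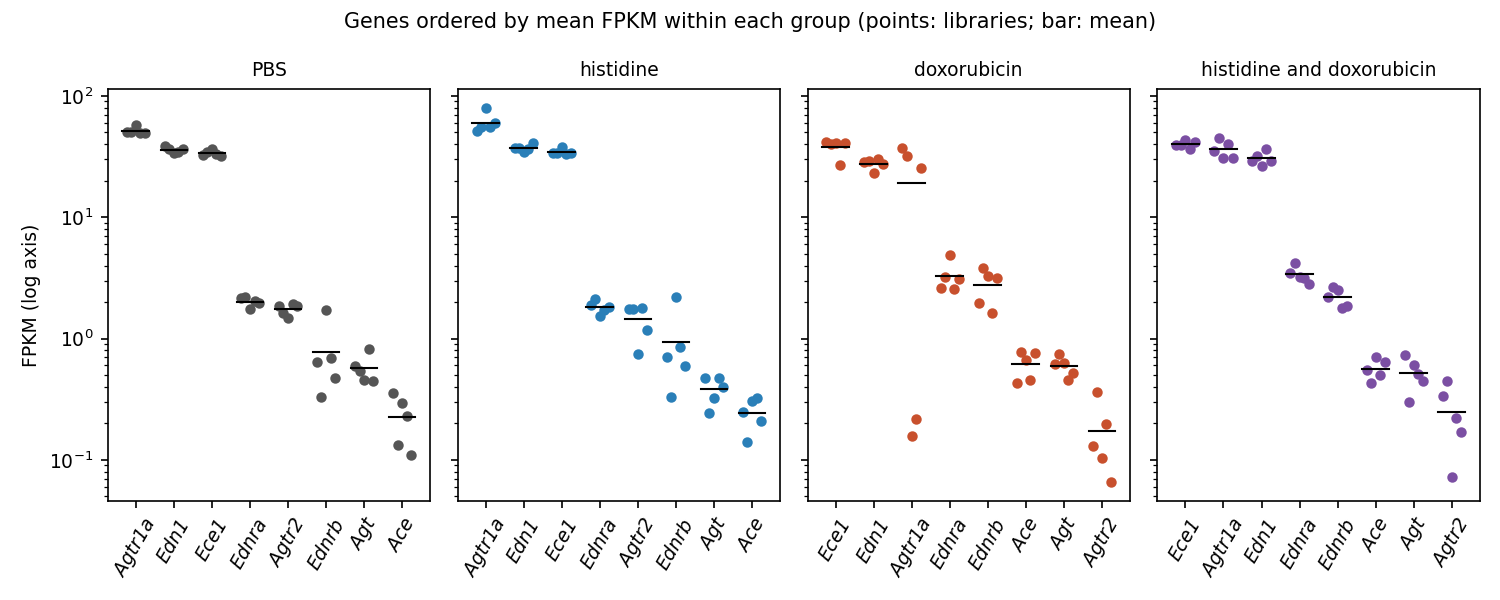
FPKM of the 8 genes in each library on a log axis, with genes ordered by group mean and the mean as a bar. By group mean Agtr1a, Edn1 and Ece1 are the highest 3 in all 4 groups, although doxorubicin replicates 3 and 4 have Agtr1a under 1 FPKM, and Agtr2 is at rank 5 without the drug and last with it.

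The balance between the receptors of each peptide is described by the ratio of their FPKM values within a library. Ednra exceeded Ednrb by a median of 3.31-fold with PBS (1.01 to 6.69) and 2.70-fold with histidine (0.709 to 6.49). With doxorubicin the median was 1.33-fold (0.840 to 1.60) and with both compounds 1.57-fold (1.28 to 1.77). The ranges overlapped, and the lowest ratios without the drug were in replicate 3 of both groups. The ratios were not corrected for the shorter implied Ednra length of 4 libraries described above. PBS replicate 3, which had the lowest PBS ratio, is 1 of these, and a shorter length raises the ratio. Agtr1a exceeded Agtr2 by a median of 27.2-fold with PBS (25.8 to 38.7) and 31.6-fold with histidine (29.3 to 107). With both compounds this was 180.1-fold (101 to 427), and with doxorubicin it was 87.9-fold (1.08 to 391). The low end of the doxorubicin range came from replicates 3 and 4, nearly empty of Agtr1a. They had 0.157 and 0.216 FPKM of Agtr1a and 0.103 and 0.199 FPKM of Agtr2. The highest ratios, in doxorubicin replicate 5 and in replicate 3 with both compounds, rest on 15 and 14 reads of Agtr2.

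Genes with the most similar profiles were sought for Agtr2, Ace and Ednrb, the members with at least a 2-fold change in both drug comparisons. Likeness was the root mean square difference in log2 CPM over the 20 libraries, each profile taken relative to its own PBS mean, among 7991 other named genes with a mean of at least 5 CPM. Nearest to Agtr2 were Rgs5, a regulator of G-protein signalling common in pericytes, at 0.45, the stress-induced factor Atf3 at 0.52 and the endothelial and myeloid surface protein Cd93 at 0.59, where the median gene stood at 2.29. Nearest to Ace were Thnsl2 at 0.34, Rhpn1 at 0.37 and the MYB family factor Mybl1 at 0.37, against a median of 1.04. Near to Ednrb were the complement regulator Cd55 at 0.39 and the protease Pappa at 0.41, against a median of 1.39. All profiles come from the same 20 libraries, so these values describe them only.

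Of 16 other genes of the angiotensin system, mostly peptidases and receptors, 12 were measured. With doxorubicin against PBS 1 was higher and 3 lower, where 43.2% of all genes passed in either direction, and the median log2 change was -0.09 against 0.05 over all genes. The 2 widest changes that passed were in Anpep, an aminopeptidase that trims angiotensin III (-0.99 ± 0.10, adjusted p = 1.83e-07), and Prcp, a carboxypeptidase that removes the end of angiotensin II (-0.89 ± 0.09, adjusted p = 2.08e-07). The peptidase Prep rose by 0.18 ± 0.06 (adjusted p = 0.0217) and Nln fell by 0.18 on the log2 scale (SE 0.07, adjusted p = 0.0361). With both against histidine 3 of these 12 were lower and 0 higher, where 40.2% of all genes passed, with a median of -0.07 against 0.01 over all genes. Anpep (-0.72 ± 0.10) and Prcp (-0.88 ± 0.09) passed there, and Prep (0.16 ± 0.06) and Nln (-0.15 ± 0.07) did not. Agtr1b, Cma1 and Mrgprd were not analysed here.

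Of the other endothelin genes 1 of 5 was measured. Ece2, a second endothelin-converting enzyme that works at acid pH, fell by 0.61 on the log2 scale with doxorubicin against PBS (SE 0.16, adjusted p = 0.00457). It fell by 0.71 with both against histidine (SE 0.16, adjusted p = 0.00141). Edn2, Edn3, Ecel1 and Kel were not analysed here.

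Kinins are peptides that Ace degrades. Of 6 kinin genes 3 were measured, too few to set against the share of all genes. With doxorubicin against PBS both bradykinin receptor genes rose, Bdkrb1 by 1.20 ± 0.36 (adjusted p = 0.0104) and Bdkrb2 by 1.05 ± 0.33 (adjusted p = 0.0154). The carboxypeptidase Cpm fell by 0.50 on the log2 scale (SE 0.18, adjusted p = 0.0270). With both against histidine Cpm fell by 0.54 (adjusted p = 0.0180), and the receptors stood at 0.71 ± 0.36 (adjusted p = 0.125) and 0.81 ± 0.33 (adjusted p = 0.0598). The list medians were 1.05 and 0.71, against 0.05 and 0.01 over all genes.

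Downstream of the receptors, 27 genes of Gq and G12 signalling were measured. With doxorubicin against PBS 3 were higher and 9 lower, where 21.7% of all genes were higher and 21.5% lower. For both against histidine the counts were 4 higher and 8 lower, where 19.9% of all genes were higher and 20.3% lower. The share called in either direction was thus near that of all genes, and the list medians were -0.10 and -0.07 against 0.05 and 0.01 over all genes. The G-protein gene Gna12 fell from 195 ± 6.54 to 153 ± 5.57 CPM (log2 -0.35 ± 0.05, adjusted p = 4.87e-06). Larger falls were in Prkcb, a protein kinase C, from 31.7 ± 2.85 to 0.107 ± 0.119 CPM (-8.23 ± 0.52, adjusted p = 1.14e-10), in phospholipase Plcb2, from 13.6 ± 0.782 to 1.07 ± 0.454 CPM (-3.66 ± 0.24, adjusted p = 1.75e-10), and in the transcription factor Nfatc2, from 4.06 ± 0.622 to 0.539 ± 0.109 CPM (-2.90 ± 0.30, adjusted p = 1.57e-07). Prkcb, Plcb2 and Nfatc2 are well known from blood cells, and leukocyte markers were lower in the same libraries. Their part in these changes was not tested.

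Of 10 genes that switch receptors off, kinases, arrestins and RGS proteins, 1 was higher and 7 lower in each drug comparison. Of all genes 21.5% were lower with doxorubicin against PBS and 20.3% with both against histidine. The list medians were -0.94 and -1.04, against 0.05 and 0.01 over all genes. Arrb2, an arrestin that binds activated receptors, fell from 52.6 ± 4.35 to 3.47 ± 0.686 CPM with doxorubicin (-3.92 ± 0.12, adjusted p = 2.46e-15). The RGS protein Rgs4 fell from 229 ± 42.8 to 12.4 ± 4.15 CPM (-4.21 ± 0.27, adjusted p = 1.80e-10). The receptor kinase Grk2 fell from 89.6 ± 2.84 to 50.0 ± 4.44 CPM (-0.84 ± 0.06, adjusted p = 8.54e-10), and Grk3 from 5.31 ± 0.219 to 0.0221 ± 0.0304 CPM (-7.69 ± 0.65, adjusted p = 7.18e-09). Rgs2, which acts on Gq, was the 1 that rose, to 207 ± 42.4 from 90.5 ± 20.9 CPM (1.19 ± 0.19, adjusted p = 4.48e-05). The list also holds Rgs5, which is 1 of the 11 smooth muscle and pericyte markers. With doxorubicin against PBS 8 of those 11 were lower and 1 higher. Among them mean Abcc9 went from 25.5 to 36.7 CPM and mean Kcnj8 from 9.51 to 11.1 CPM. The smooth muscle and leukocyte sums were lower in the same libraries, and their part in these changes was not tested.

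Corticosteroid genes, listed because angiotensin II drives the release of aldosterone, came to 6, of which 5 were measured. In each drug comparison 4 were higher, 1 of them a row of uncertain identity given last, and 1 was lower. Of all genes 21.7% were higher with doxorubicin against PBS and 19.9% with both against histidine, and the list medians were 0.37 and 0.78 against 0.05 and 0.01. The glucocorticoid receptor gene Nr3c1 rose by 0.37 ± 0.07 (adjusted p = 0.000447) and Hsd11b2, which inactivates corticosterone, by 2.00 ± 0.61 from 0.226 ± 0.182 CPM (adjusted p = 0.0123) with doxorubicin against PBS. The kinase Sgk1, a corticosteroid target, fell by 1.18 on the log2 scale (SE 0.16, adjusted p = 3.95e-06). The row named Hsd11b1 by KEGG rose by 1.84 ± 0.23 (adjusted p = 1.58e-06), but its protein name is that of a LINE-1 element, so that its identity is uncertain.

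Of 12 genes known to respond to angiotensin II or endothelin-1, 9 were lower and 1 higher with doxorubicin against PBS, where 21.5% of all genes were lower. In both against histidine 8 were lower and 2 higher, where 20.3% of all genes were lower. The list medians were -0.89 and -0.84, against 0.05 and 0.01 over all genes. The slow myosin heavy chain gene Myh7 fell from 161 ± 11.9 to 6.76 ± 2.34 CPM (-4.57 ± 0.19, adjusted p = 2.09e-13). The matricellular genes Ccn1 (-0.53 ± 0.05, adjusted p = 7.35e-08) and Ccn2 (-1.41 ± 0.14, adjusted p = 1.22e-07) fell too. Many other signals drive these genes, Myh7 and Nppa are also on the cardiomyocyte marker list, and that list's sum was lower in the same libraries.

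**Figure D4:**
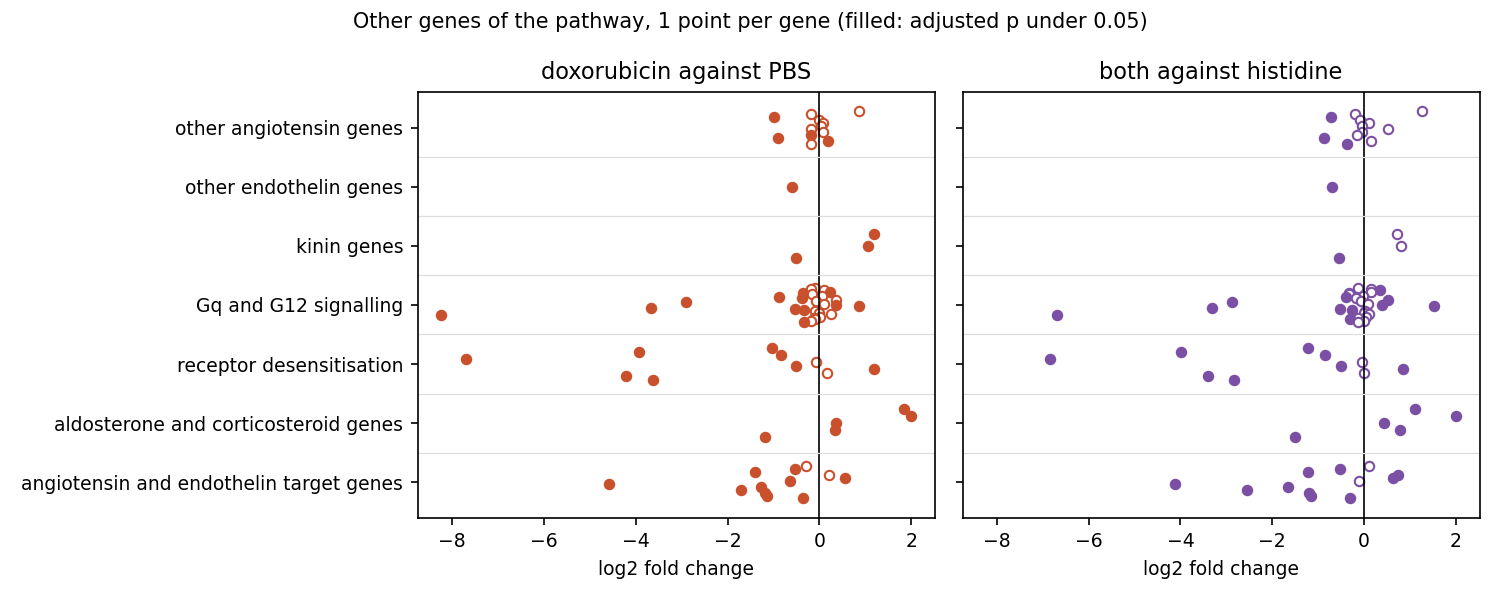
Log2 fold change of each measured gene of the 7 pathway lists in the 2 drug comparisons, 1 point per gene, filled at an adjusted p under 0.05 in edgeR's quasi-likelihood test. Of the receptor desensitisation genes 7 of 10 lie below 0 and are filled in each panel, and of the 27 Gq and G12 genes 12 are filled in each panel.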

How the data were processed

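Read counts per gene were deposited by the authors as whole numbers, not normalised, beside FPKM values that the authors scaled to gene length and library reads, per the file headers. The build mRatBN7.2 and read trimming with Trimmomatic come from the submitters' processing notes. Which aligner, counter and annotation were used is not given in the sources used here. Libraries were unstranded, made from oligo(dT)-selected RNA with random hexamer primers, per the labels' protocols.

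Counts were filtered with edgeR 4.0.16 (filterByExpr, 15449 genes kept), scaled by TMM and tested with its quasi-likelihood F test in 1 fit of 4 groups over 20 libraries, with Benjamini-Hochberg adjustment at 0.05. The SE is the log2 fold change divided by the square root of F. Likeness used log2(CPM + 0.1). DESeq2 1.42.0 and limma 3.58.1 (pseudocounts 0.1 and 1 FPKM), other scalings and filters, and libraries left out were alternatives. Named genes are the 8 members, up to 4 genes per list with the smallest p, and the nearest 3 genes in profile; exceptions are named as such, and some genes the rule took are not reported here. Members and lists were chosen with earlier results of these data known. Symbols came from the table's own names and RefSeq for 10307 genes.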

Additional observations from a re-analysis of the deposited data

Results flagged for a closer look

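In 6 of the 32 sets of 5 libraries, 1 library lay far from the other 4 (Dixon's test at the 95% level, which chance passes in about 1 of 20 sets). The 32 sets come from the same 20 libraries and no share over all genes is given. Whether 6 of 32 is unusual for these libraries was therefore not tested. Replicate 3 was the highest library for Agtr1a with PBS, at 167 CPM, and with histidine, at 228 CPM. It was also the highest for Ednrb, at 3.76 CPM with PBS and 4.66 CPM with histidine, and for Ece1 with histidine, at 181 CPM. In the same PBS and histidine libraries the summed fibroblast and smooth muscle markers were the lowest of their groups, and the epicardial markers the highest. In doxorubicin replicate 4, which stood apart on the second principal component, Ece1 was the lowest of its group at 141 CPM. The near-empty Agtr1a values of doxorubicin replicates 3 and 4 do not appear here, since with 2 low libraries neither stands alone.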

How the results depend on the processing

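Over 29 alternatives, 1115 of 1152 values of the 8 genes kept their direction and their side of the threshold, 20 changed sign, 7 lost a call and 10 gained one. The 7 lost calls are all of Ednrb with both against histidine. The changes of sign were in values that did not pass the test. With doxorubicin against PBS, Agt (-0.01) turned to 0.0551 and 0.0209 with limma on log2(FPKM + 0.1) and log2(FPKM + 1), and to 0.0255 with a replicate block. Leaving out 1 library at a time gave -0.0917 to 0.163 for it. With histidine against PBS the same step gave -0.0712 to 0.310 for Ace, -0.0044 to 0.0572 for Edn1, -0.340 to 0.767 for Ednrb and -0.0259 to 0.0354 for Ece1. For Ece1 it gave -0.0258 to 0.0822 with both against doxorubicin and -0.0336 to 0.0758 for the interaction. Without doxorubicin replicates 3 and 4, chosen after seeing the data, Agt stood at 0.048 with doxorubicin against PBS, Ece1 at -0.0351 with both against doxorubicin and -0.0431 for the interaction, and Agtr1a at -0.0046 for the interaction. The cause was not tested.

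Counts of all genes moved from 0 as follows. DESeq2 called 2 higher and 3 lower with histidine against PBS, 6 and 14 with both against doxorubicin, and 8 and 7 for the interaction, and limma on log2(FPKM + 1) called 1 lower with histidine against PBS. Leaving out 1 library gave 0 to 1 higher and 0 to 1 lower with histidine against PBS, 0 to 1 higher and 0 to 6 lower with both against doxorubicin, and 0 to 1 higher and 0 to 2 lower for the interaction; the 6 came without doxorubicin replicate 2. Without doxorubicin replicates 3 and 4 it was 1 higher with histidine against PBS, and 1 higher and 1 lower with both against doxorubicin.

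Correlations of same-numbered libraries ran from -0.031 to 0.193, the highest being replicate 3 of PBS and histidine. Some libraries were closest to their own number, replicate 3 of PBS and histidine among them, and others were not. Whether the replicate numbers mark paired libraries was therefore not settled. With the replicate block, 3193 genes were higher and 3386 lower with doxorubicin against PBS, and all calls on the 8 genes were as without it. Depth limits Agtr2 with the drug, at 14 to 82 reads per library, and Agt, at 27 to 134.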
